A study of Sus scrofa with 6 samples.

Results

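SETD3 gave rise to 5 circRNAs in the table analysed here, out of 4350 circRNAs in all and 2552 exonic ones. They are all circRNAs whose host gene is listed as SETD3. The gene was chosen by the measured level of its main circRNA, circRNA1183, which was already known to be abundant at both ages in these same libraries, so the level and the dominance of circRNA1183 are given as a description without a test. Testis RNA came from 3 Landrace boars at postnatal day 30 (stage Piglet, libraries Young_D30) and 3 at postnatal day 210 (stage Adult, libraries Adult_D210), with 1 library per boar and no treatment at either age. The adult boars had normal spermatogenesis by their semen before sampling. Ribosomal RNA was depleted and linear RNA digested with RNase R before sequencing, so the reads describe circles and not the SETD3 mRNA.

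A circRNA forms when the splice donor at the end of an exon is joined back to the acceptor of an exon upstream of it, and the read that spans this back-splice junction is the evidence for the circle. Closed circles resist exonucleases and can outlast the linear transcript, and testis is among the tissues rich in them. SETD3 encodes a SET domain protein that methylates a histidine of actin, and the annotation in the table also lists it as a histone lysine methyltransferase.

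The libraries held 37364412 to 49179118 mapped reads and, over the circRNAs of the table, 12701 to 33091 back-splice reads. All 2552 exonic circRNAs have a read in Young_D30 replicate 1, against 1004 to 1247 in each of the other libraries, and 650 of them were seen there alone. SETD3 circRNAs without a read in that library are not analysed here, so the minor members were compared only among those that this library also held. The circRNAs analysed here are a part of those the paper reports. The 47 exonic ones that pass the abundance limit used below all lay on chromosomes 7, 8, 12 or 13. Ranks and host lists thus refer to the circRNAs of the table and not to the whole genome.

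All 5 members were exonic, lay on the minus strand of chromosome 7 (Sscrofa10.2) and were assigned to the transcript ENSSSCT00000002786. circRNA1183 covers 128024097 to 128033636, a genomic span of 9540 nt with 5 exons. Read along the transcript, its first exon is 110 nt long (128033527 to 128033636). A stretch of 2492 nt with 2 exons follows (128027585 to 128030076), then an exon of 73 nt (128025162 to 128025234) and a last exon of 257 nt (128024097 to 128024353). These borders were obtained from the ends and the flanking introns of the 5 circRNAs.

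The 4 minor circRNAs overlap circRNA1183, 2 of them inside it and 2 reaching beyond it. circRNA1181 (127985235 to 128033636, 7 exons) and circRNA1180 (127979839 to 128033636, 8 exons) start at the same acceptor and run past an intron of 37942 nt to donors further downstream. circRNA1182 (128024097 to 128025234, 2 exons) ends at the same donor but starts inside the circle. circRNA1184 (128025162 to 128030076, 3 exons) shares neither border and lies within it. The exon of 73 nt was part of all 5 circRNAs.

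**Figure D1:**
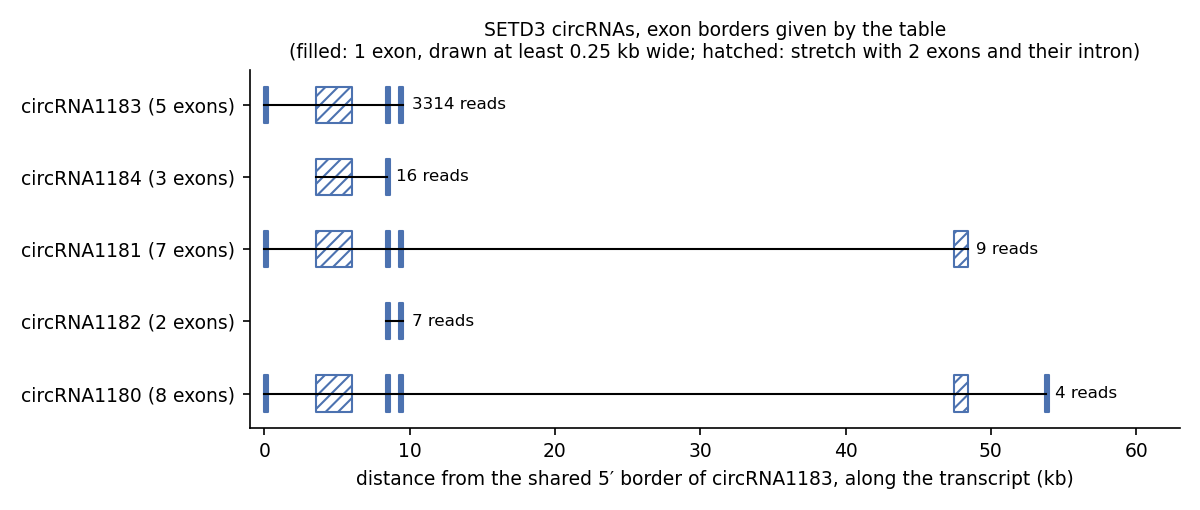
Extent of the 5 SETD3 circRNAs, with distance along the transcript in kb on the horizontal axis and 1 row per circRNA. Filled boxes are single exons, hatched boxes are stretches with 2 exons, and the number beside each row is its back-splice reads over the 6 libraries, from 4 for circRNA1180 to 3314 for circRNA1183.

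Nearly all SETD3 back-splice reads came from circRNA1183. It had 727, 288 and 433 reads in Young_D30 replicates 1 to 3 and 898, 580 and 388 reads in Adult_D210 replicates 1 to 3. Together these were 3314 of 3350 SETD3 reads (98.9%, 95% Wilson interval 98.5 to 99.2), and 2.74% of the 120743 back-splice reads of the table. Intervals here cover counting error only, since PCR copies of a molecule cannot be recognised among these reads. The circle dominated both of its own borders. Of the 3327 reads that entered at its acceptor, 99.6% joined it to its own donor (95% Wilson interval 99.3 to 99.8), and 13 reads belonged to the longer circles. Of the 3321 reads that left from its donor, 99.8% returned to its own acceptor (99.6 to 99.9), and 7 belonged to circRNA1182.

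Relative abundance was read as SRPBM, the back-splice reads of a circRNA scaled to the mapped reads of its library and to the read length. circRNA1183 stood at 129.7, 44.0 and 66.5 SRPBM in Young_D30 replicates 1 to 3. In Adult_D210 replicates 1 to 3 it stood at 122, 95.6 and 53.0 SRPBM. The highest and the lowest library were thus both young, and every adult library lay between them. Only 1 circRNA ranked above it in Young_D30 replicate 3 and in each adult library, none in Young_D30 replicate 1 and 3 in Young_D30 replicate 2, so that its rank was 1, 4 and 2 at day 30 and 2 in each library at day 210.

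**Figure D2:**
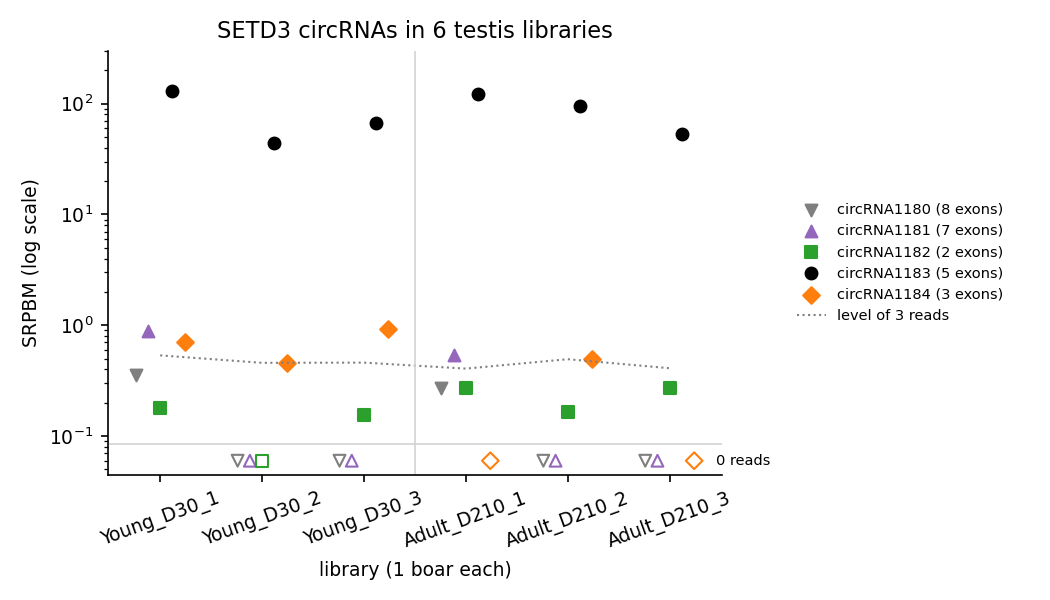
SRPBM of the 5 SETD3 circRNAs (log scale) in each of the 6 libraries, with 1 symbol per circRNA, open symbols for 0 reads and a dotted line at the level that 3 reads give. circRNA1183 lies between 44.0 and 129.7 SRPBM, and no minor circRNA exceeds 0.921 SRPBM.

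The minor circRNAs had 36 reads between them. circRNA1184 was the most abundant of these, with 4, 3 and 6 reads at day 30 and 0, 3 and 0 at day 210. It was present in all young libraries and in 1 adult library, and the groups touched at 3 reads. circRNA1182 had 1, 0 and 1 reads at day 30 and 2, 1 and 2 at day 210. The long circles were seen in replicate 1 of each age and nowhere else: circRNA1181 had 5 reads in Young_D30 and 4 in Adult_D210, and circRNA1180 had 2 and 2. Below 3 reads in a library, presence and absence could not be told apart at this depth. Over the 6 libraries circRNA1183 had 207 times the reads of circRNA1184 and 829 times those of circRNA1180.

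The composition of SETD3 circRNAs was next compared between the ages, since a share within a library does not depend on its depth. circRNA1183 held 98.4%, 99.0% and 98.4% of the SETD3 reads in the Young_D30 libraries and 99.1%, 99.3% and 99.5% in the Adult_D210 libraries. Every adult share lay above every young share, and in how many other hosts this occurs was not counted. The means were 98.6% ± 0.333 (SD, n = 3) at day 30 and 99.3% ± 0.185 (SD, n = 3) at day 210. The difference was 0.722 percentage points, given as a description because the dominance of circRNA1183 was part of the choice of the gene. Behind it stood 12, 3 and 7 minor reads at day 30 and 8, 4 and 2 at day 210, and the 95% Wilson intervals of the 6 libraries, which ran from 96.8 to 99.9, all overlapped. A minor exonic circle present in adults but without a read in Young_D30 replicate 1 could not enter these shares, which leaves out minor reads of the other libraries only.

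In amount, the 4 minor circRNAs summed to 2.14, 0.458 and 1.07 SRPBM at day 30 and to 1.08, 0.659 and 0.273 SRPBM at day 210. The groups overlapped. On the log2(SRPBM + 0.1) scale the adult mean was lower by a difference of −0.71, which was smaller than the spread between boars (p = 0.5 by exact permutation of the 6 libraries, two-sided, where 0.1 is the smallest p possible). It was −0.22 without Young_D30 replicate 1, −0.26 without Adult_D210 replicate 3, −1.22 without Young_D30 replicate 2 and −1.09 without Adult_D210 replicate 1. The need for a read in Young_D30 replicate 1 can only lower this sum in the other libraries, which include all 3 adult ones.

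Counts were tested across the whole table with edgeR, and 111 of the 1341 circRNAs with at least 10 reads (8.28%) were called between the ages, which here means a log2 fold change of 1 or more in either direction with adjusted p below 0.05. Of the SETD3 circRNAs, 2 reached 10 reads, circRNA1183 and circRNA1184, and 3 did not. circRNA1184 was not called, with a log2 fold change of −1.68 in Adult_D210 against Young_D30 (SE 1.35, Benjamini-Hochberg adjusted p = 0.446 from edgeR).

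How circRNA1183 compared between the ages depended on the scale. On the scale of mapped reads, its mean was 80.1 ± 44.4 SRPBM (SD, n = 3) in Young_D30 and 90.1 ± 34.7 SRPBM (SD, n = 3) in Adult_D210, a ratio of 1.13. The groups overlapped over most of their range, and 1 library was enough to turn the direction, since the log2 ratio of 0.17 became −0.12 without Young_D30 replicate 2 and −0.11 without Adult_D210 replicate 1. Among the 1341 tested circRNAs, 27.2% had groups that did not overlap in SRPBM, and 3.73% had every adult library above every young one. In whole testis, fewer cells of a type and less RNA per cell cannot be told apart.

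As a part of the back-splice reads of the table, circRNA1183 was higher in adults. Exonic circles without a read in Young_D30 replicate 1 are missing from these totals. This can only lower the totals of the other libraries, which include all adult ones, and so raise the part held by circRNA1183 there. Of every 1000000 back-splice reads circRNA1183 held 21969.7, 15614 and 23257 in the Young_D30 libraries and 38078, 40545 and 30549 in the Adult_D210 libraries. The groups did not overlap, and the ratio of the means was 1.79. On the same scale, and with the same circles missing, 12.2% of the tested circRNAs had every adult library above every young one. With TMM scaling, which damps the weight of a few abundant circRNAs and sets the libraries on a common centre, the ratio was 1.63, and every adult library again lay above every young one, as in 9.92% of the tested circRNAs, but Adult_D210 replicate 3 (27059 scaled reads per 1000000) came next to Young_D30 replicate 1 (26922). The log2 fold change from the edgeR fit was 0.70 (standard error 0.23), while the median over all 1341 tested circRNAs was −0.42. Without Young_D30 replicate 1, in which every exonic circRNA has a read, these values were 0.96 and −0.05. Fitted with mapped reads as library size it was 0.17 (standard error 0.45), against a median of −0.90. Relative to the median circRNA, the 2 fits thus placed circRNA1183 higher in adults by 1.12 and 1.07 on the log2 scale. Its own fold change stayed under the limit of 1 in both fits. The 2 fits used the same counts and differed in library size, which moves all circRNAs nearly alike. Their 2 differences from the median are therefore not separate lines of evidence. Without Young_D30 replicate 1 the first of these differences was 1.01. Exonic circles without a read in that library are missing from all these medians, and how far this moved them was not tested.

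**Figure D3:**
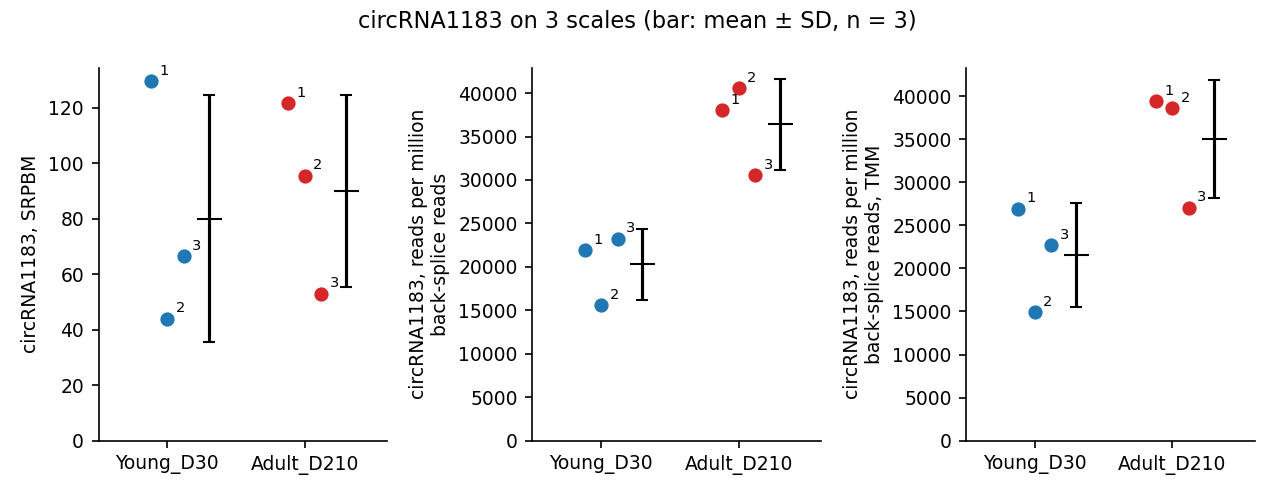
Level of circRNA1183 in the 3 Young_D30 and 3 Adult_D210 libraries on 3 scales, from left to right SRPBM, reads per 1000000 back-splice reads, and the latter with TMM factors. Points are libraries with their replicate number, and bars give mean ± SD. The groups overlap in SRPBM, where the means are 80.1 and 90.1, and are apart on the other scales.

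The yield of back-splice reads over the circRNAs of the table differed between libraries. Exonic circles without a read in Young_D30 replicate 1 are not counted, which can only lower the yield of the other libraries. Per 1000000 mapped reads, 886, 423 and 429 back-splice reads were counted in Young_D30 replicates 1 to 3 and 480, 354 and 260 in Adult_D210 replicates 1 to 3. Within each age, the libraries had the same order by SRPBM of circRNA1183, and the part of the yield in its level was not tested. A pair of further denominators was added after the data had been seen. Over the 497 circRNAs detected in all 6 libraries, the ratio of adult to young means was 1.63. Against the reads of the intronic circRNAs, which need no read in Young_D30 replicate 1, it was 1.86. The groups did not overlap on either, and how many of the tested circRNAs shared this on these denominators was not counted.

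For stability over the 6 libraries, circRNA1183 was set beside the 48 circRNAs with a mean above 10 SRPBM, itself included. It ranked at position 2 of these with a mean of 85.1 SRPBM. Its highest library was 2.95 times its lowest, and the SD of its log2(SRPBM + 0.1) was 0.64, against a median of 0.78 and a range from 0.27 to 4.22 over the 48. It had the 11th smallest spread, so 37 of the 48 varied more. On the TMM scale its SD was 0.52 against a median of 0.56, and its place was 21. By the ratio of adult to young SRPBM it was the 3rd closest to 1 of the 48, where the median log2 ratio was −0.87, while by the size of the edgeR log2 fold change it had place 20 from the smallest. Of the 48, 16 were called between the ages, 7 higher and 9 lower in Adult_D210. Over all 1341 tested circRNAs, most of which have fewer reads to test with, 8.28% were called.

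Its neighbours in abundance differed among themselves. circRNA12278 of SLC38A10, an amino acid transporter gene, had the only higher mean (88.6 SRPBM), with 34.7 ± 27.3 SRPBM (SD, n = 3) at day 30 and 142 ± 82.0 (SD, n = 3) at day 210, and was called higher in Adult_D210. circRNA11869 of GRAMD1C, a sterol transfer protein gene, followed at 62.0 SRPBM, with 84.2 ± 23.6 (SD, n = 3) and 39.8 ± 14.1 (SD, n = 3), and was not called. circRNA10933 of RBM6, which encodes an RNA-binding protein, came next at 56.2 SRPBM, with 60.5 ± 1.23 (SD, n = 3) and 51.9 ± 13.3 (SD, n = 3). Its groups overlapped like those of circRNA1183, it was not called, and it had the smallest spread of all 48 on the SRPBM scale (SD of log2 0.27).

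**Figure D4:**
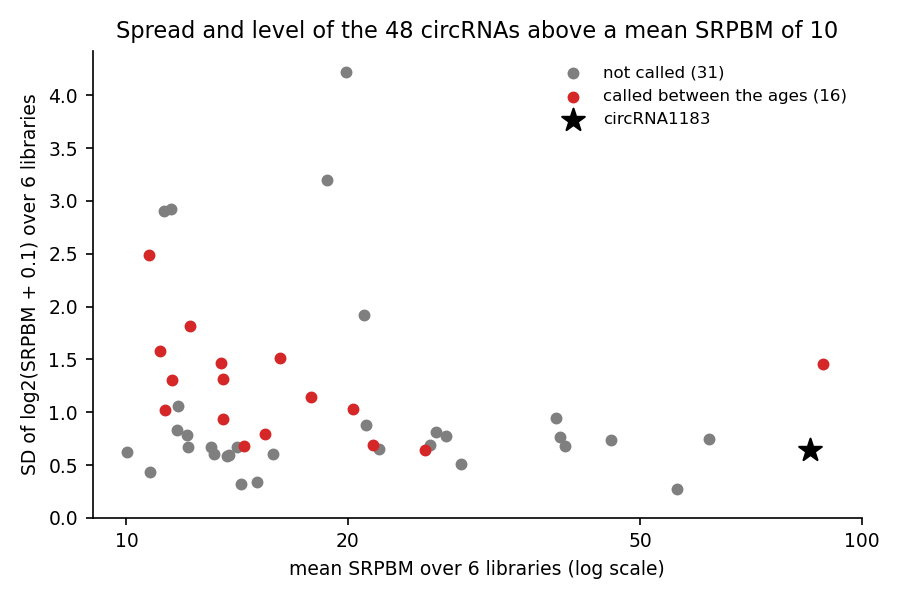
SD of log2(SRPBM + 0.1) over the 6 libraries against mean SRPBM (log scale) for the 48 circRNAs above a mean of 10, with those called between the ages in red. circRNA1183 (star) has a mean of 85.1 and an SD of 0.64, below the median of 0.78.

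The concentration of SETD3 reads on 1 circle was compared with that of other hosts. Of the 208 host genes with at least 2 exonic circRNAs and 100 reads, the top circRNA held a median of 53.3% of the exonic reads, and more than 90% in 18. With 98.9%, SETD3 had the 6th highest share. Of the 19 such hosts with exactly 5 exonic circRNAs, it had the highest share, and the median was 47.0%. Of the 659 hosts of exonic circRNAs in the table, only 2 had more reads than SETD3.

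**Figure D5:**
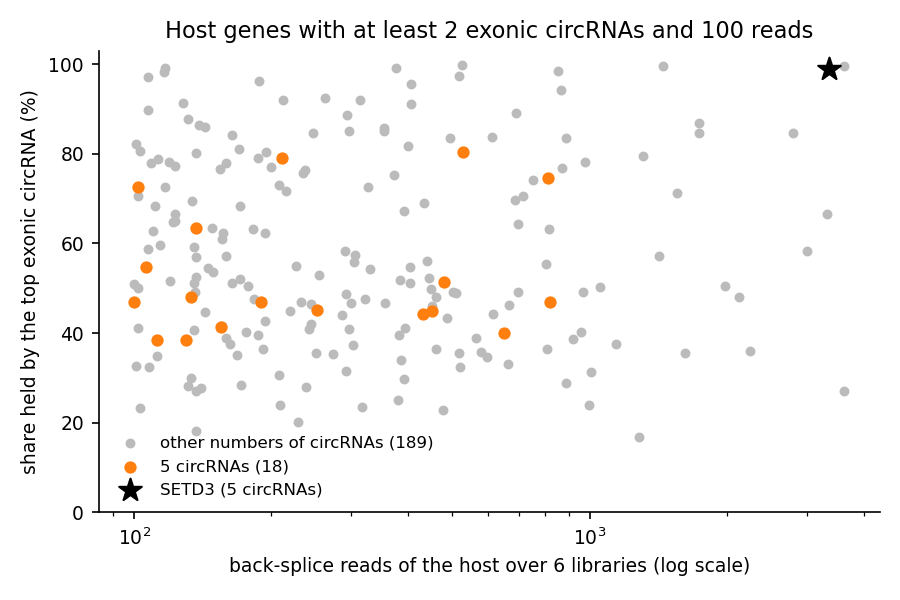
Share of a host's exonic back-splice reads held by its top circRNA against its reads over the 6 libraries (log scale), for the 208 hosts with at least 2 exonic circRNAs and 100 reads. Hosts with 5 circRNAs are in orange, and SETD3 (star) lies at 98.9% and 3350 reads.

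Long flanking introns are a known feature of circularised exons. The intron upstream of circRNA1183 spans 12710 nt (128033637 to 128046346) and the one downstream 37942 nt (127986155 to 128024096). Of the 2515 exonic circRNAs with both flanking introns listed, 73.5% had a shorter upstream intron and 96.3% a shorter downstream intron, with medians of 5504 nt and 4348 nt. The 47 exonic circRNAs above a mean of 10 SRPBM had medians of 8567 nt and 9440 nt, and in 42 of them the downstream intron was shorter than that of circRNA1183. Of the minor circRNAs inside the circle, circRNA1184 was flanked by introns of 3450 and 808 nt. circRNA1182 had 2350 nt upstream and, downstream, the same intron of 37942 nt as circRNA1183. In span and exon number circRNA1183 was near the middle, with 53.3% of the 2552 exonic circRNAs shorter in genomic span and a median of 4 exons.

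The circRNAs whose pattern over the 6 libraries was most like that of circRNA1183 were taken from the 391 of other hosts with at least 60 reads, by Pearson r of TMM-scaled log2 counts. They were circRNA1228 of TDRD9, a helicase gene of the piRNA pathway (r = 0.98), circRNA11352 of GK5 (0.97), circRNA10618 of ANKRD28 (0.96), circRNA10817 of SETD2, a histone methyltransferase gene (0.95), and circRNA12264 of TBCD, a tubulin folding cofactor (0.94). On the log2 SRPBM scale the same 5 had r of 0.93, 0.81, 0.71, 0.96 and 0.77. These are descriptions over 6 libraries that share depth and age with each other, chosen as the highest of 391, of which 26 exceeded 0.9 and the median was −0.07. circRNA1228 had 36, 12 and 21 reads at day 30 and 55, 46 and 25 at day 210 (3.83 ± 2.35 and 6.15 ± 2.37 SRPBM, SD, n = 3 each), with overlapping groups in SRPBM like circRNA1183.

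SETD3 was chosen for the level of circRNA1183, so its level beside hosts of related function is given as a description. Of 50 other SET domain genes listed, 16 hosted 51 circRNAs in the table, with 2365 reads in all against 3350 for SETD3. Their most abundant circle, circRNA10828 of SETD2, had a mean of 14.5 SRPBM, so circRNA1183 was 5.88 times as abundant. circRNA12123 of SETD4 had a mean of 2.21 SRPBM. The table holds a part of the circRNAs the paper reports, so changes in other SET domain hosts can be missing here. NSD1, a listed gene, had no circRNA under its name here, while the paper reports an NSD1 circRNA as upregulated in sexually mature boars. Of the 28 circRNAs of the list that were tested, 17 were of SETD2. In all, 5 were called higher in Adult_D210, all of SETD2, and 0 lower. The median log2 fold change of the 28 was 0.25 against −0.42 over all tested circRNAs, where 3.43% were called higher and 4.85% lower. The calls and most of the values behind this median thus came from circles of 1 gene and do not describe the SET domain hosts as a set. At an unadjusted p below 0.05, edgeR gave 7 higher and 2 lower, and DESeq2 called 5 higher and 0 lower. The count was 1 with the replicate block and also without Young_D30 replicate 3, Adult_D210 replicate 1 or Adult_D210 replicate 2. Without Young_D30 replicate 2 it was 3, and without Young_D30 replicate 1 there were 4 higher and 1 lower. With mapped reads as library size edgeR called 0 of the 28 (3 higher and 2 lower at an unadjusted p below 0.05), and the median was −0.25. circRNA10828 itself had 86, 61 and 46 reads at day 30 and 198, 104 and 81 at day 210, with a log2 fold change of 1.28 (SE 0.29, Benjamini-Hochberg adjusted p = 0.0113 from edgeR). It was no longer called with mapped reads as library size (adjusted p = 0.289 from edgeR), without Adult_D210 replicate 1 (0.0603) or without Young_D30 replicate 3 (0.0768).

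Actin, the substrate of SETD3, and its assembly factors hosted few circles in the table, which holds a part of those the paper reports. Of 67 genes listed, 12 hosted 23 circRNAs with 365 reads, and 10 of these circRNAs were exonic. Of the 23, 4 were tested, with a median log2 fold change of 0.39 against −0.42 over all tested circRNAs. This median of few values was −0.06 with mapped reads as library size, −0.36 without Adult_D210 replicate 2 and 2.17 without Young_D30 replicate 1, where 3 were tested. Of the 4, 1 was called higher, against 3.43% of all tested. circRNA12280 of BAIAP2, a gene for an adaptor between membranes and actin, was called higher in Adult_D210, with 18, 12 and 12 reads at day 30 and 106, 61 and 43 at day 210 (log2 fold change 2.60, SE 0.38, Benjamini-Hochberg adjusted p = 0.000716 from edgeR). circRNA11556 of ACTL6A, a subunit of chromatin remodelling complexes, had a mean of 0.498 SRPBM and was not called, and ciRNA308 of ACTG1, a cytoplasmic actin gene, had 5 reads, all in Young_D30 replicate 1.

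The table holds circRNAs and no mRNA, so the tissue label could not be checked with markers. Of 21 germ cell genes listed, 3 hosted 7 intronic circRNAs with 0.298 to 0.749 reads per 1000000 mapped reads at day 30 and 0.0205 to 0.488 at day 210. Leydig cell genes hosted 6 circRNAs with 64 reads, Sertoli cell genes 2 with 8 reads and peritubular genes 1 with 1 read, while endothelial and macrophage genes hosted 0. All of these circRNAs were intronic. The table holds a part of the circRNAs the paper reports, so these counts do not show how many circles such genes form in testis. The part of these cell types in the level of circRNA1183 was not tested.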

How the data were processed

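Reads of 150 nt in pairs were trimmed with Cutadapt and mapped with TopHat2 to the pig assembly (Sscrofa10.2 in the submitters' processing notes), and reads over back-splice junctions were taken from TopHat-Fusion and CIRCExplorer2. For each circRNA the deposited table gives, in every library, a raw count of junction reads and the SRPBM. The latter is a signal that the authors obtained by dividing the count by mapped reads and read length. Mapped reads were recovered from the ratio of both. Counts carry no correction for differences in RNase R digestion or yield between libraries, and SRPBM moves with that yield.

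Samples were grouped by their titles, each library being 1 boar. The members, lists and tests were chosen with earlier results of these data known. Counts were tested with edgeR 4.0.16 in R 4.3.3 (at least 10 reads over the 6 libraries, TMM on back-splice totals, robust quasi-likelihood fit, Benjamini-Hochberg adjustment over 1341 circRNAs), and standard errors came from the fold change and the F statistic. The code was tested on simulated data. For the summed minor circRNAs, an exact permutation test (two-sided) was run in Python 3.11.15. A pseudocount of 0.1 SRPBM was used on log scales. Named circRNAs were all SETD3 members, up to 2 neighbours on each side by mean SRPBM, the 5 most alike, and up to 3 hosts per list, of which 1 is not reported here. Of 482 hosts listed by Ensembl identifier, 284 were matched to a symbol for the lists, and 0 of these were SETD3. Alternatives were DESeq2 1.42.0, other scalings, filters, pseudocounts and denominators, a replicate block and each library left out.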

Additional observations from a re-analysis of the deposited data

How the results depend on the processing

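circRNA1184 stayed uncalled and kept its direction in every fit that tested it, with log2 fold changes from −5.06 to −0.87 when 1 library was left out. The lowest of these came without Adult_D210 replicate 2, where both remaining adult libraries had 0 reads and the fitted value depends on the prior count. With at least 20 reads required it was not tested. For circRNA1183 the log2 fold change was positive and under 1 in every fit, from 0.54 to 0.96 with 1 library left out, 0.78 by DESeq2 and 0.17 with mapped reads as library size. The number of circRNAs called in the whole table was 33 with the replicate block and 39 to 81 with 1 library left out, against 111, and from 77 to 128 otherwise. Scaled by mapped reads, 9 were called higher and 68 lower, against 46 and 65. The replicate numbers did not pair the libraries (correlation of deviations from the group means 0.05, −0.01 and −0.03 for replicates 1 to 3).

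The share of SETD3 reads held by circRNA1183 was higher in adults under each alternative run, by 0.617 to 0.914 percentage points with 1 library left out. The paired difference, the replicate block for this share, equals the difference of the group means by arithmetic. It could thus only repeat the 0.722 percentage points. All members were exonic, so a run with exonic members alone could not differ either. The summed level of the minor circRNAs was lower in adults under each alternative run, by a log2 difference of −1.22 to −0.22 with 1 library left out and −2.10 with members of at least 10 reads only, which leaves circRNA1184 alone. The log2 ratio of circRNA1183 between the ages was 0.90 per intronic read and −0.12 to 0.71 in SRPBM with 1 library left out, the cause of which was not tested. Its rank by spread among abundant circRNAs, 11 of 48, was 21 of 48 on the TMM scale, 31 of 117 with a limit of 5 SRPBM, and 7 to 19 with 1 library left out. Minor circRNAs with under 3 reads in a library are limited by depth.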
